A study of Mus musculus with 6 samples.

Results

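Epithelial-mesenchymal transition (EMT) genes were examined in SCCc, a cultured squamous cell carcinoma line of the mouse skin. The set was 9 genes chosen by name, namely the transcription factor genes *Snai1*, *Snai2*, *Twist1*, *Zeb1* and *Zeb2*, the mesenchymal genes *Vim*, *Fn1* and *Cdh2*, and the epithelial gene *Epcam*. Each of the 9 had a row of its own among the 23698 gene rows of the count tables, and no row with joined gene names contained any of them.

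The study compared mRNA isoforms in mouse epidermal stem cells, cultured keratinocytes and SCCc, and translation in the keratinocytes and SCCc. Analysed here are 3 libraries of SCCc, 1 of ribosome profiling (Ribo-seq) and 2 of RNA-seq. The cells were keratinocytes isolated from newborn (P0) back skin, carried HrasG12V together with a Tgfbr2 fl/fl KO, and were used between passages 10 and 15. They form 1 line, and no source states that RNA-seq replicates 1 and 2 were separate cultures, so the spread between them may be technical. Exon counts summed to 10707930 in RNA-seq replicate 1, 14003713 in RNA-seq replicate 2 and 3549555 in Ribo-seq. All libraries carry both modifications, so the values describe levels within SCCc and not an effect of either modification.

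In an EMT, epithelial cells loosen their junctions and take up a migratory, mesenchymal form. The SNAIL, TWIST and ZEB factors repress genes of epithelial junctions by binding E-box motifs, and TGF-beta, signalling through its receptors, is a classical inducer of their expression. The miRNAs of the miR-200 family, together with miR-205, repress *Zeb1* and *Zeb2*, while in the epidermis *Snai2* is the SNAIL family gene normally expressed by basal keratinocytes.

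The mature miRNAs of this circuit are shown because the seed, in capitals (bases 2 to 8), sets the site searched for in the members' 3′UTRs. All 6 matched the RefSeq table (GRCm38.p6), and they fell into 3 seed groups. Those with the seed AAUACUG were the following.
miR-200b-3p: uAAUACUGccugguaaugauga
miR-200c-3p: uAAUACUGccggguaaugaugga
miR-429-3p: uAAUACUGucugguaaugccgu
Those with the seed AACACUG were miR-141-3p and miR-200a-3p.
miR-141-3p: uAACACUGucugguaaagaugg
miR-200a-3p: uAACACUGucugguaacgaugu
The remaining miRNA, miR-205-5p, had the seed CCUUCAU.
miR-205-5p: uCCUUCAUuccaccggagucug

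The longest annotated 3′UTR of each gene (GENCODE M21) was searched on the mRNA strand for the 7 bases complementary to each seed. For the seed AAUACUG (site CAGTATT), *Zeb1* and *Zeb2* held 5 sites each and *Fn1*, *Snai1* and *Snai2* held 1 each, so that 5 of the 9 members had a site, against 13.3% of 21007 genes. For AACACUG (site CAGTGTT), *Zeb1* and *Zeb2* held 4 sites each and *Fn1* and *Snai2* held 1 each, against 17.2% of genes with a site. For CCUUCAU (site ATGAAGG), *Zeb1* alone among the members held 1 site, against 11.1% of genes. Long 3′UTRs hold more matches by length, and that of *Zeb2* was 4941 bases long whereas that of *Epcam*, without a match to any of the 3 sites, was 660 bases long. The first match of each miR-200 site in the *Zeb2* 3′UTR is given below with the site in capitals, both on the minus strand of GRCm38. A match describes the letters of the sequence and does not show binding.
*Zeb2*, chr2:44988350-44988372: attttgtaCAGTGTTaaggccta
*Zeb2*, chr2:44988166-44988188: ccatacatCAGTATTttattatt

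The E-box of the SNAIL and ZEB factors was searched as CAGGTG and CACCTG, which are each other's reverse complement, so that both strands were covered. RefSeq promoters (GRCm38.p6) run from 250 bases before to 50 bases after a start site. They were searched for 5 of the 9 members, namely *Vim*, *Zeb2*, *Snai1*, *Twist1* and *Epcam*. An E-box was found in 2 of these 5, *Epcam* and *Snai1*. Among all genes, 22.6% of 27025 had one, or 20.2% of their 32851 promoters of the same length. Promoters of *Zeb1*, *Cdh2*, *Fn1* and *Snai2* were not searched, which does not mean that they lack a listed promoter or an E-box. Because members were left out, their share is not compared with that of all genes. *Vim*, *Twist1* and the 4 listed promoters of *Zeb2* had no match in this window. The matches are shown because the promoter of the member with the most footprints, *Epcam*, held 2 of them, at −187 and −19 from the start site, and that of *Snai1* held 1 at −126. Motifs are in capitals and all windows are on the plus strand.
*Epcam*, chr17:87635780-87635809: gccagtagggccCACCTGctggaggaccgg
*Epcam*, chr17:87635948-87635977: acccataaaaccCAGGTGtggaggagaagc
*Snai1*, chr2:167538057-167538086: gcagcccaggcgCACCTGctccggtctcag

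The targeted gene, *Tgfbr2*, was counted in every library. Its exons had 3150 counts in RNA-seq replicate 1 and 3958 in replicate 2, or 61.4 and 59.0 RPKM (a unit that scales counts to the counted length and to the summed exon counts of the library), and there were 193 footprints on the coding sequence (CDS), or 30.7 RPKM. Counts over a whole gene cannot show the loss of single exons, so these values neither show nor contradict the deletion. *Hras* stood at 48.5 and 50.9 RPKM in the RNA-seq replicates and 64.0 RPKM in footprints, and a base change cannot be read from them either.

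The labelled cell type was checked against markers. All 8 keratinocyte markers had at least 3 counts in every library, against 51.0% of the 20188 rows with a counted CDS. They summed to 14361 and 16482 RPKM in the RNA-seq replicates and 8683 RPKM in footprints. *Krt5*, the keratin of basal keratinocytes, was the most abundant of them, at 7965 and 9483 RPKM. *Krt14* followed at 4824 and 5362 RPKM, whereas *Krt10* (7.37 and 6.93 RPKM) and *Krt1* (6.36 and 9.05 RPKM) were lowest. SCCc thus carried *Krt5* and *Krt14* at high levels. The summed levels of markers of other cell types, described below, were far lower. Single markers need not be, as the immune marker *Cd68* (35.1 and 37.3 RPKM) stood above *Krt1* and *Krt10*.

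Among the EMT genes, RNA was concentrated in *Snai2* and *Epcam*, and the other members were low or undetected. A count of 0 allows up to 3, so 3 counts served as the detection limit, which is given below as RPKM over each gene's own counted length. At least 3 counts in both RNA-seq libraries were found for 6 of the 9 members, *Snai2*, *Epcam*, *Twist1*, *Vim*, *Fn1* and *Cdh2*, against 53.4% of all rows. In all 3 libraries, with footprints counted on the CDS, 5 of 9 reached 3 counts, against 51.0% of the 20188 rows with a counted CDS. *Snai1* was the member at 0 in every library, 1 of 9 against 26.9% of these rows. Expression filters (over 1 RPKM in each RNA-seq library, over 25 counts in the mean of size-factor-scaled libraries, and footprints on a counted CDS) were passed by 4 of 9, *Snai2*, *Epcam*, *Twist1* and *Vim*, against 48.9%. These shares of the members lie near those of all genes. Where the filters were replaced by 100 counts or more per library, 2 of 9 passed, against 23.9% of rows with a counted CDS. With the filters applied to the deposited RPKM, 2 of 9 passed as well, against 40.6%.

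**Figure D1:**
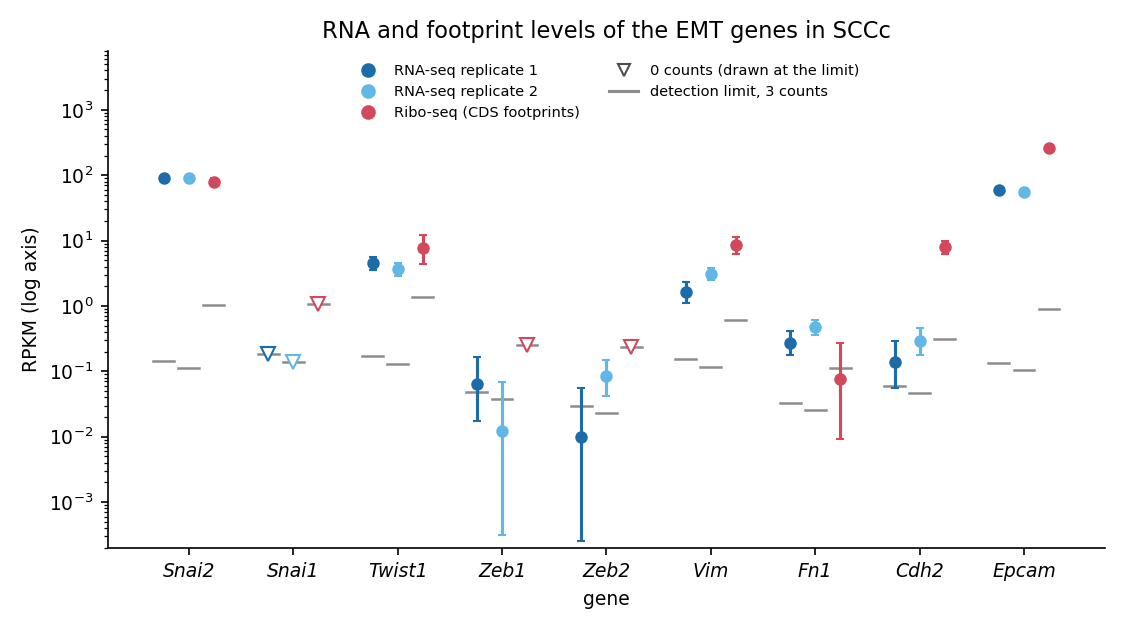
RPKM (log axis) of the 9 EMT genes in RNA-seq replicates 1 and 2 (exons) and in Ribo-seq (CDS), with exact Poisson 95% intervals of the counts, grey lines at the detection limit of 3 counts, and open triangles at that limit for 0 counts. *Snai2* and *Epcam* stand above 50 RPKM in every library, whereas *Snai1*, *Zeb1* and *Zeb2* have 0 footprints.

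Of the transcription factor genes, *Snai2*, which encodes the zinc finger repressor SLUG, had the most RNA. It lies on chromosome 16 from 14705852 to 14709385 on the plus strand (GRCm38) with 1 annotated transcript, of which the whole CDS of 807 bases was counted. *Snai2* had 1893 and 2462 RNA-seq counts, or 91.6 and 91.1 RPKM (95% counting intervals 87.5 to 95.8 and 87.5 to 94.7), with a mean of 91.3 ± 0.361 RPKM (SD, n = 2). The replicates were indistinguishable at this depth, and the mean stood at percentile 96.6 of all rows. On the CDS there were 224 footprints, or 78.2 RPKM (68.3 to 89.2), so that *Snai2* was also occupied by ribosomes well above its detection limit of 1.05 RPKM. These intervals, like all others here, cover counting error only, as reads copied by PCR do not count molecules.

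*Snai1*, a paralog of *Snai2* on chromosome 2 (167538195 to 167542814, plus strand), encodes SNAIL and had 0 counts in RNA-seq replicate 1, RNA-seq replicate 2 and Ribo-seq. With 3 counts per library as the limit, its level lay below 0.184 and 0.141 RPKM in the RNA-seq replicates and below 1.07 RPKM in footprints. *Snai2* RNA was therefore at least 498-fold higher than *Snai1* RNA per length in replicate 1 and at least 647-fold higher in replicate 2, and its footprints were at least 73.3-fold higher. The whole annotated CDS of *Snai1*, 792 bases, was counted. *Snai3*, the other paralog, had 2 and 3 RNA-seq counts and 5 footprints.

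*Twist1*, encoding a basic helix-loop-helix factor of the mesoderm, lies on chromosome 12 (33957671 to 33959829, plus strand) and was detected at a low level. There were 79.0 and 83.0 RNA-seq counts, or 4.54 RPKM (3.59 to 5.65) and 3.65 RPKM (2.90 to 4.52), and the intervals of the replicates overlapped. Footprints on its CDS numbered 16.7, or 7.67 RPKM (4.44 to 12.3). *Snai2* RNA was 20.2-fold and 24.97-fold above *Twist1* RNA per length in replicates 1 and 2. Its paralog *Twist2* was similar, at 3.35 and 4.40 RPKM in RNA and 11.6 RPKM in footprints.

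*Zeb1* and *Zeb2*, the targets of the miR-200 family whose site counts are given above, encode zinc finger and homeodomain repressors and were at the limit of detection. *Zeb1* had 4 and 1 RNA-seq counts, or 0.0648 and 0.0124 RPKM, around limits of 0.0486 and 0.0372 RPKM. *Zeb2* had 1 and 11.1 RNA-seq counts, or 0.00999 and 0.0849 RPKM, so that only replicate 2 exceeded its limits of 0.0300 and 0.0229 RPKM. Neither gene had a footprint, which allows up to 0.255 RPKM for *Zeb1* and 0.232 RPKM for *Zeb2*. Exons of *Zeb2* overlap those of the opposite-strand gene *Zeb2os*, and strand use in counting was not stated, so its few RNA-seq counts cannot be told apart from reads of that gene. The same limit holds for *Zeb1* and the opposite-strand *Gm10125*, and for *Zeb2* with *Gm27761* on the opposite strand and *Mir5129* on its own. *Snai2* footprints were at least 307-fold above those of *Zeb1* and at least 337-fold above those of *Zeb2* per length. In bulk samples such as these, a low level in every cell and a higher level in few cells cannot be told apart.

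The miRNA rows add little on this circuit, since the libraries were made from mRNA and ribosome footprints and a row counts fragments of the precursor rather than the mature miRNA. *Mir205* had 4.33 and 5.23 RNA-seq counts, and *Mir200a*, *Mir200b*, *Mir200c*, *Mir141* and *Mir429* each stayed below 3 counts in every library, the first 3 of them at 0.

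Over a wider list of 14 EMT transcription factor genes, 7 had at least 3 counts in both RNA-seq libraries, against 53.4% of all rows, and 6 passed the filters, against 48.9%, so that neither count stands apart from all genes. A minimum of 100 counts per library left 2 of the 14, against 23.9% of rows with a counted CDS, and the deposited RPKM left 3, against 40.6%. The highest after *Snai2* were *Tcf3*, which encodes E2A proteins, at 19.9 and 23.6 RPKM, and *Sox4* at 12.3 and 13.8 RPKM. *Tcf3* had few footprints for its RNA, 6.65 RPKM. *Gsc*, like *Snai1*, had 0 counts in all libraries, and *Prrx1* had 1 and 2 RNA-seq counts without a footprint. *Snai2* thus had the most RNA per length of the 14 in both replicates and the most footprints per length in the Ribo-seq library.

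Among the mesenchymal members, *Vim*, which encodes the intermediate filament vimentin, was low but detected. It lies on chromosome 2 from 13573927 to 13582826 on the plus strand. RNA-seq counts were 31.7 in replicate 1 and 79.3 in replicate 2, or 1.63 RPKM (1.11 to 2.30) and 3.11 RPKM (2.46 to 3.87), and these intervals did not overlap. On the CDS there were 41.9 footprints, or 8.51 RPKM (6.13 to 11.5). *Epcam* RNA exceeded *Vim* RNA per length 37.1-fold in replicate 1 and 17.6-fold in replicate 2, and its footprints exceeded those of *Vim* 30.6-fold.

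*Fn1*, on chromosome 1 (71585520 to 71653200, minus strand), encodes fibronectin, a matrix glycoprotein. It had 24.9 and 56.0 RNA-seq counts over 8425 counted bases, or 0.276 RPKM (0.178 to 0.408) and 0.474 RPKM (0.358 to 0.616). Only 2 footprints fell on its CDS, or 0.0758 RPKM (0.00918 to 0.274), below its limit of 0.114 RPKM. *Fn1* RNA was thus above the limit in both replicates, while its footprints were not above the limit at this depth. Its exons overlap the opposite-strand gene *Apol7d*, whose reads cannot be told apart from its own without strand.

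*Cdh2*, which encodes N-cadherin, showed the opposite relation. Its RNA amounted to 7 and 18.9 counts, or 0.141 RPKM (0.0566 to 0.290) and 0.291 RPKM (0.175 to 0.455). Yet 76 footprints were counted, all of them on the CDS and none on the UTRs, or 7.88 RPKM (6.21 to 9.86), a level close to that of *Vim* and *Twist1*, whose intervals overlap it. The tables hold no positions within a CDS, so whether these footprints were spread along it was not tested. *Cdh1*, encoding the E-cadherin that *Cdh2* replaces in a classical EMT, had 50.8 and 51.8 RPKM in RNA and 91.1 RPKM in footprints. *Cdh1* exceeded *Cdh2* 361-fold and 178-fold in RNA of replicates 1 and 2, but 11.6-fold in footprints.

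Of 20 mesenchymal and matrix genes, 19 had at least 3 counts in both RNA-seq libraries (53.4% of all rows), whereas 12 had 3 counts in every library (51.0%) and 8 passed the filters (48.9%). The last 2 counts lie near the shares of all genes. Under the minimum of 100 counts 5 of the 20 passed (23.9% of rows with a counted CDS), on the deposited RPKM also 5 (40.6%), and without a filter 14 (55.6%). The most abundant RNAs of this list were those of *Sparc* at 505 and 500 RPKM, *Itgb1* at 166 and 147 RPKM, and *Cd44* at 108 and 101 RPKM. Those of *Ddr2* and *Fbn1* lay lowest, at means of 0.0439 and 0.0825 RPKM, both without footprints. *Acta2*, the smooth muscle actin, had 976 footprints against 4 and 14.0 RNA-seq counts; its CDS closely resembles those of other actin genes, so its counts are given as uncertain, and the part of reads from those genes in them was not tested. The median RNA level of the list was 0.545 RPKM, beside 0.483 RPKM over all rows.

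All 20 epithelial identity genes passed the filters, against 48.9% of rows with a counted CDS, or 12 with at least 100 counts in every library, against 23.9%, and 16 on the deposited RPKM, against 40.6%. Their median RNA level was 28.7 RPKM, beside 15.3 RPKM for all 9863 genes that passed. *Epcam*, the epithelial cell adhesion molecule, lies on chromosome 17 from 87635979 to 87651129 on the plus strand, and its whole CDS of 945 bases was counted. It had 1330 and 1581 RNA-seq counts, or 60.3 RPKM (57.1 to 63.6) and 54.8 RPKM (52.1 to 57.5), with a mean of 57.5 ± 3.90 RPKM (SD, n = 2). Footprints numbered 872, or 260 RPKM (243 to 278), more than any other member and at percentile 96.5 of the 20188 rows with a counted CDS.

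The order of *Snai2* and *Epcam* differed between RNA on exons and footprints on the CDS. In RNA on exons, *Snai2* was 1.52-fold above *Epcam* per length in replicate 1 and 1.66-fold in replicate 2, and in footprints *Epcam* was 3.33-fold above *Snai2*. Intervals of the pair did not overlap in any of the 3 libraries. Counted over the CDS, mean RNA was 114 RPKM for *Snai2* and 96.0 RPKM for *Epcam*. On that basis, an alternative chosen after seeing the data, *Snai2* was 1.09-fold (0.998 to 1.19) and 1.29-fold (1.19 to 1.39) above *Epcam* in replicates 1 and 2, so that in replicate 1 the pair could not be told apart. Next in RNA came *Twist1* and *Vim*, whose order held in both replicates but whose intervals overlapped in replicate 2, followed by *Fn1* and *Cdh2*, whose intervals overlapped in both replicates. *Zeb1* and *Zeb2* came last and could not be ordered, the *Zeb1* interval overlapping that of *Cdh2* in replicate 1, and *Snai1* was undetected.

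**Figure D2:**
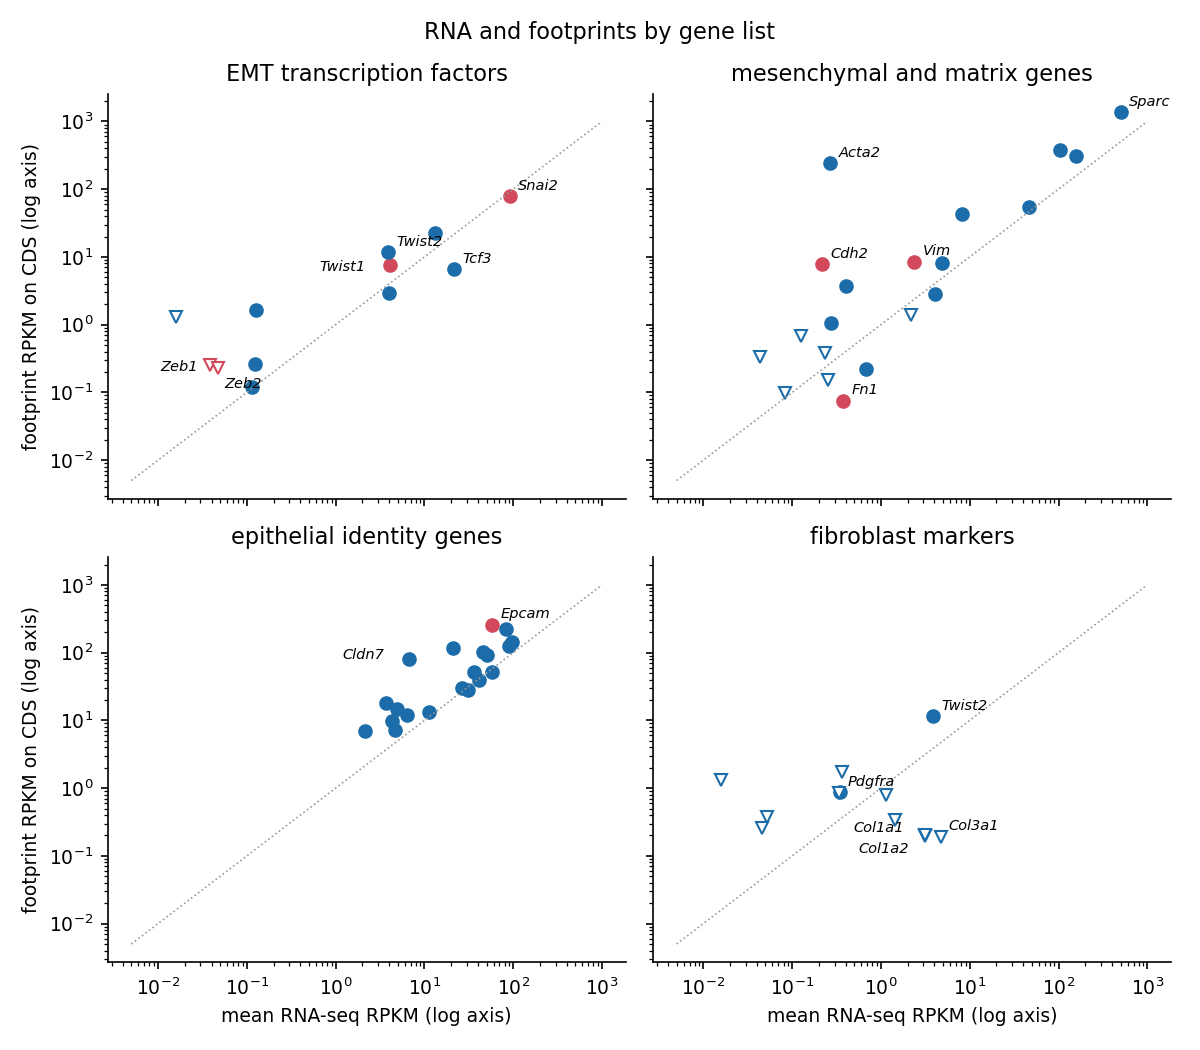
Footprint RPKM on the CDS against mean RNA-seq RPKM (log axes) for genes of the EMT transcription factor, mesenchymal, epithelial and fibroblast lists, with EMT members in red, open triangles at the detection limit for genes with 0 footprints, and a dotted line where both are equal; genes without RNA are not drawn. Of all genes above 1 RPKM in both RNA-seq libraries with at least 100 RNA-seq counts, 1.33% have 0 footprints. At such levels, 0 of 20 epithelial genes and 3 of 4 fibroblast markers have 0 footprints.

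Other junction genes were also abundant. Of 18 cadherin and desmosome genes 16 passed, against 48.9%, the exceptions being *Dsg1a* and *Dsc1* of differentiated layers, and *Pkp1* (506 and 515 RPKM), *Dsc3* (303 and 273 RPKM) and *Ctnnb1* (250 and 242 RPKM) were highest in RNA. Among the epithelial genes, *Rab25* (95.8 and 97.2 RPKM), *Cldn1* (88.1 and 89.3 RPKM) and *Cldn4* (72.8 and 94.7 RPKM) stood above *Epcam*, and *Ovol1* and *Cldn3* were lowest with means of 2.15 and 3.69 RPKM. *Cdh1* and *Epcam* RNA differed by 1.19-fold in replicate 1 and 1.06-fold in replicate 2, both with *Epcam* higher.

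Translational efficiency, the footprint RPKM on the CDS divided by the mean RNA-seq RPKM on exons, was taken on the log2 scale relative to the median of the 9863 passing genes. With 1 Ribo-seq library it has no replicate check and no test. *Epcam* had a log2 translational efficiency of 1.83 (95% counting interval 1.72 to 1.94), *Vim* of 1.50 (0.96 to 2.03), *Twist1* of 0.56 (−0.23 to 1.31) and *Snai2* of −0.57 (−0.77 to −0.37). Thus 2 of the 4 passing members lay above 1, against 20.8% of passing genes, and 0 of 4 lay below −1, against 21.1%. The epithelial gene was translated above the median and the factor gene with the most RNA below it, while the *Twist1* interval included the median. *Epcam* stood at percentile 92.1 of passing genes, *Vim* at 88.2, *Twist1* at 68.2 and *Snai2* at 31.6. Centred on the genes that have 100 or more counts per library, *Snai2* lay at −0.96 and *Twist1* at 0.17. With RNA-seq counted over the CDS, *Twist1* lay at 0.90. *Vim* stood at 2.12 without division by length, and at 1.09 and 2.04 without RNA-seq replicates 1 and 2.

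The 2 mesenchymal members that failed the filters lay on opposite sides of the median. *Cdh2* had a log2 translational efficiency of 4.85 (4.18 to 5.55) and *Fn1* of −2.65 (−5.72 to −0.75). Both depend on how low values are treated, since a pseudocount of 1 RPKM gave 2.56 for *Cdh2* and −0.67 for *Fn1*, and *Fn1* stood at −1.82 without division by length. *Fn1* had 2 footprints, and at the limit of 3 its value would be −2.06, above the 5th percentile of passing genes, −2.31. Its counting interval reached higher still, to −0.75. *Cdh2* also depends on the replicate, at 4.40 without RNA-seq replicate 1 and 5.46 without replicate 2. The *Cdh2* value lay beyond the 95th percentile of passing genes, 2.25, but its denominator rested on 25.9 RNA-seq counts in all. For *Zeb1* and *Zeb2* the limit of 3 footprints allows values up to 2.38 and 1.95, so their translational efficiency could not be measured at this depth.

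**Figure D3:**
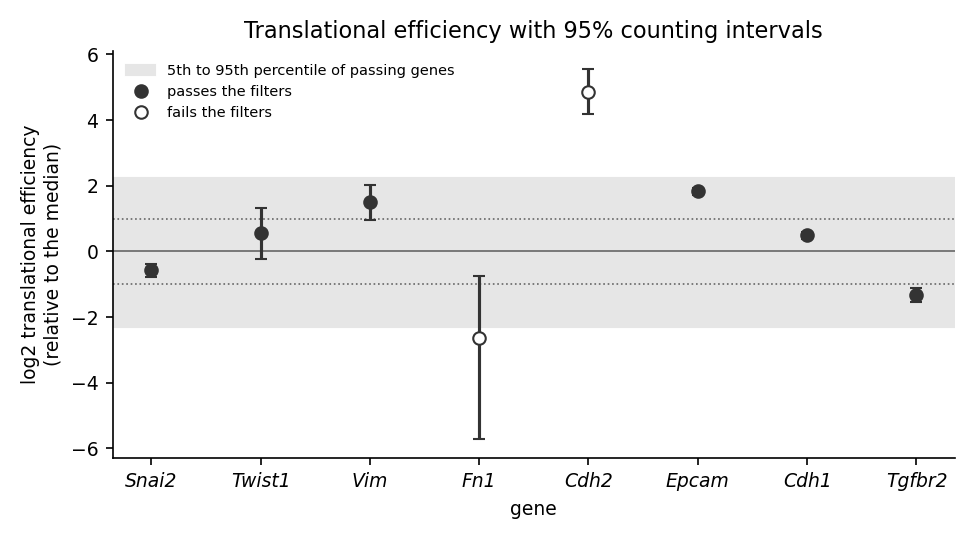
Log2 translational efficiency of EMT members with footprints, *Cdh1* and *Tgfbr2*, relative to the median of 9863 passing genes, with 95% counting intervals, open circles for genes that failed the filters, dotted lines at 1 and −1, and the 5th to 95th percentile of passing genes shaded. *Epcam* and *Vim* lie above 1, *Snai2* at −0.57 and *Cdh2* at 4.85.

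By list, the median log2 translational efficiency was 0.52 over the 20 epithelial genes, with 7 above 1 and 0 below −1, and 0.87 over the 8 passing mesenchymal genes, with 4 above 1 and 0 below −1. The 8 keratinocyte markers, which all passed, had a median of −0.69, with 0 above 1 and 4 below −1. Of all passing genes, 20.8% lay above 1 and 21.1% below −1. *Cldn7* (3.26) and *Klf5* (2.14) were highest among the epithelial genes, and *S100a4* (2.03) and *Cd44* (1.51) among the passing mesenchymal genes. The 6 passing transcription factors had a median of −0.05, with *Twist2* above 1 at 1.24 and *Tcf3* below −1 at −2.05. Of the 16 passing cadherin and desmosome genes, *Jup* lay above 1 at 1.08, and *Dsp* (−2.63), *Ppl* (−2.36) and *Pkp1* (−1.005) lay below −1. *Cdh1* stood at 0.49, between *Epcam* and *Snai2*, and *Tgfbr2* at −1.32.

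The genes closest to *Snai2*, by Euclidean distance in log2 RPKM over the 3 libraries among the passing genes, included *Fkbp5* (0.06) and *Acsl5* (0.07). *Fkbp5*, a co-chaperone gene, had 94.7 and 93.4 RPKM in RNA and 77.3 RPKM in footprints. Because the 3 libraries are of 1 condition, this likeness is one of level.

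Footprints lay more on the CDS than RNA-seq counts did for *Snai2*, *Epcam* and *Twist1*, whereas for *Vim* the intervals of the CDS share overlapped between Ribo-seq and both RNA-seq replicates. On *Snai2*, the CDS took 49.7% (exact binomial 95% interval 47.4 to 52.0) and 54.4% (52.4 to 56.4) of RNA-seq counts but 87.5% (82.8 to 91.3) of footprints, and the 3′UTR took 49.4% and 42.2% of RNA-seq counts but 4.30% (2.16 to 7.56) of footprints. *Epcam* footprints lay on the CDS to 96.8% (95.4 to 97.8), against 75.8% and 77.2% of its RNA-seq counts. Over all genes, 90.1% of the Ribo-seq counts on exons lay on a CDS, against 67.3% and 68.7% in RNA-seq.

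The 5′UTR of *Snai2*, of which 115 bases were counted, carried 21.03 footprints, or 8.21% (5.15 to 12.3) of its footprints on exons, beside 4.50% over all genes. *Epcam* had 18.3 footprints on its 5′UTR, or 2.03% (1.19 to 3.14). RNA over the *Snai2* 5′UTR differed between replicates, with 17.5 counts or 0.922% (0.524 to 1.43) in replicate 1 and 83.3 counts or 3.38% (2.69 to 4.16) in replicate 2. The share was also higher in replicate 2 for *Cdh1*, at 0.419% and 1.22%, and *Tgfbr2*, at 0.151% and 0.686%, but lower for *Twist1*, at 0.927% and 0%, and *Vim*, at 4.93% and 4.32%, both with overlapping intervals. For *Epcam* it was 0.191% and 0.307%, and over all genes the 5′UTR share was 3.48% in replicate 1 and 4.03% in replicate 2. A ratio of footprints to RNA on the *Snai2* 5′UTR would thus depend on the replicate used, and none is given.

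**Figure D4:**
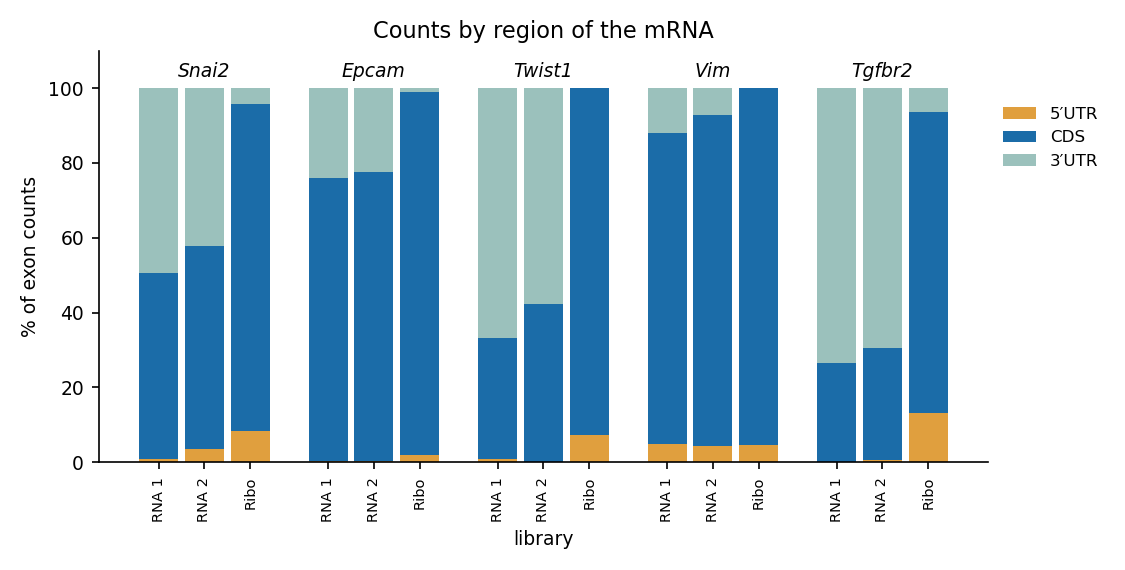
Percentage of exon counts on the 5′UTR, CDS and 3′UTR of *Snai2*, *Epcam*, *Twist1*, *Vim* and *Tgfbr2* in RNA-seq replicates 1 and 2 and in Ribo-seq. CDS shares of footprints run from 80.6% for *Tgfbr2* to 96.8% for *Epcam*, above those in RNA-seq of the same gene, although for *Vim* (95.4% in footprints, 83.1% and 88.4% in RNA-seq) the intervals overlap.

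*Vim*, *Fn1* and *Cdh2* had more RNA per length in replicate 2 than in replicate 1. The log2 ratio of replicate 2 to replicate 1 was 0.93 (95% counting interval 0.31 to 1.56) for *Vim*, 0.78 (0.07 to 1.52) for *Fn1* and 1.05 (−0.26 to 2.55) for *Cdh2*, whose interval included 0. These intervals leave out the spread between libraries, and *Fn1* lay within the 5th to 95th percentile of genes with 20 to 200 counts, −0.67 to 0.89, so that it is not shown to differ. Of the 6 members with at least 20 RNA-seq counts in all, these 3 exceeded 0.5, a limit chosen after the values were seen, against 3.68% of all genes with that many counts. Since low counts vary more, genes with 20 to 200 counts give a background of like depth, and 15.8% of them exceeded 0.5, against 3 of the 4 members in that range. The other members with that many counts gave −0.01 for *Snai2*, −0.14 for *Epcam* and −0.32 (−0.78 to 0.15) for *Twist1*. Below 20 counts, *Zeb2* was also higher in replicate 2, at 3.09 (0.29 to 8.50), and *Zeb1* gave −2.39 (−8.01 to 0.95).

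Several fibroblast markers were also higher in replicate 2. At least 3 counts in both RNA-seq libraries were found for 10 of 12, against 53.4% of all rows, and their summed level was 14.6 RPKM in replicate 1 and 22.5 RPKM in replicate 2. Of 7 with at least 20 counts, 4 exceeded 0.5, with a median log2 ratio of 0.79, and of 16 mesenchymal and matrix genes with that many counts 5 did, with a median of 0.34, *Vim*, *Fn1* and *Cdh2* among them, but not the abundant *Sparc* (−0.02), *Itgb1* (−0.17) and *Cd44* (−0.09). Of the 20 epithelial genes 1 did, *Cldn3*, with a median of 0.04. Of all genes with at least 20 counts 3.68% exceeded 0.5, and of those with 20 to 200 counts 15.8%. The lists differ in depth, so their counts are not compared with each other. Among the fibroblast markers, *Dcn* went the other way with −0.29, and *Fap* had 3 counts in replicate 1 and 0 in replicate 2. *Col3a1*, a collagen of dermal fibroblasts and the most abundant marker of the list, had 232 and 428 RNA-seq counts. The part of fibroblast RNA in the *Vim*, *Fn1* and *Cdh2* levels was not tested.

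In footprints the same collagen genes were at 0. *Col1a1* (102 and 276 RNA-seq counts), *Col1a2* (126 and 284) and *Col3a1* had no footprint on the CDS, which places their log2 translational efficiency below −4.35, −4.26 and −4.95. Of the 4 fibroblast markers above 1 RPKM in both RNA-seq libraries with at least 100 RNA-seq counts, 3 thus had 0 footprints, and *Twist2* was the exception. None of the 4 EMT members at such levels lacked footprints, 0 of 4, against 1.33% of all 9908 genes at such levels. Fibroblast markers summed to 12.5 RPKM in footprints, which came from *Twist2* and *Pdgfra* alone. In the same library *Vim* had 41.9, *Cdh2* 76 and *Fn1* 2 footprints, and no source states whether it came from the culture of either RNA-seq replicate.

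**Figure D5:**
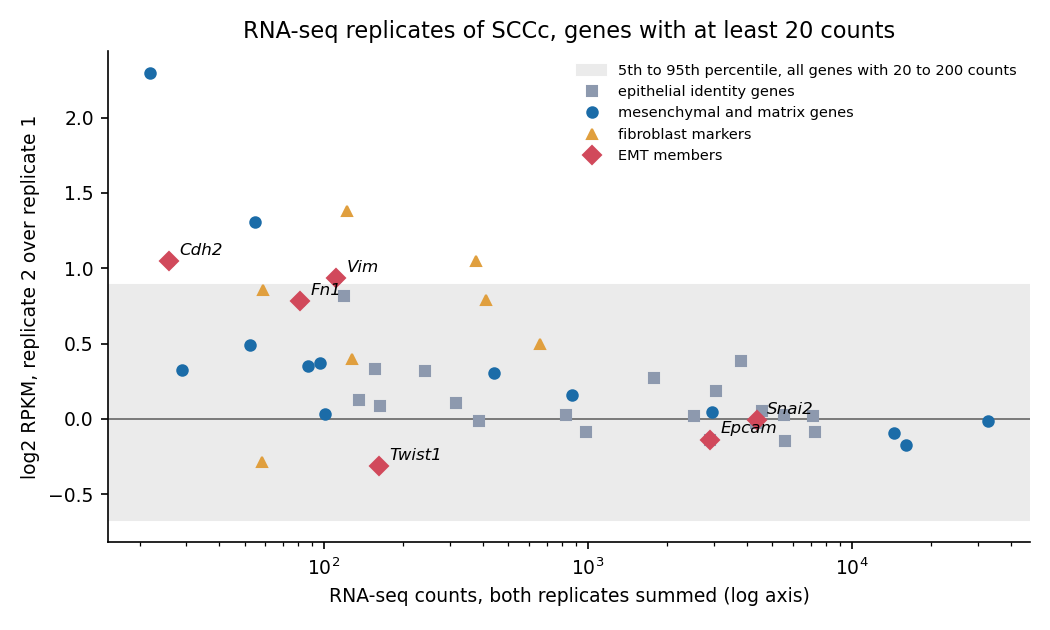
Log2 ratio of RPKM in RNA-seq replicate 2 over replicate 1 against summed RNA-seq counts (log axis) for genes with at least 20 counts of the EMT, mesenchymal, epithelial and fibroblast lists, with the 5th to 95th percentile of all genes with 20 to 200 counts shaded (−0.67 to 0.89). *Vim* and *Cdh2* lie above this range and *Fn1* within it, whereas *Snai2* and *Epcam* lie near 0.

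Markers of other cell types were also counted, with shares near the 53.4% of all rows that had at least 3 counts in both RNA-seq libraries. Of 6 melanocyte markers 3 did, summing to 5.49 and 5.65 RPKM in RNA and 1.38 RPKM in footprints, the RNA mostly from *Pmel*, while *Mlana* had 1 and 0 counts. Of 5 endothelial markers 2 did, summing to 0.569 and 0.652 RPKM in RNA and 0.908 RPKM in footprints, with *Kdr* the most abundant and *Tek* and *Emcn* at 0 in 1 replicate each. Of 4 listed immune markers 2 did, summing to 35.2 and 37.5 RPKM in RNA and 10.3 RPKM in footprints, nearly all from *Cd68*, while *Cd3e* and *Cd207* were at 0 in every library and *Ptprc*, the pan-leukocyte gene, had 5 and 14 RNA-seq counts and 0 footprints. Their part in the levels of *Vim*, *Zeb1* and *Zeb2*, which such cells also express, was not tested.

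Genes known to respond to TGF-beta were also counted in these Tgfbr2 KO cells. Of 12 listed, 10 had at least 3 counts in both RNA-seq libraries, against 53.4% of all rows, and 9 passed the filters, against 48.9%. Their median RNA level was 6.29 RPKM, beside 0.483 RPKM over all rows. *Tgfbi* (88.8 and 91.3 RPKM) and *Ctgf* (29.3 and 32.7 RPKM) were among the highest in RNA, and *Ltbp2* and *Snai1* were lowest. In log2 translational efficiency *Id1* (3.56), *Id3* (2.47) and *Ctgf* (1.45) lay above 1 and *Tgfbi* (−2.07) below −1. Without libraries of cells that carry the receptor, an effect of its loss on these genes or on the EMT members was not tested.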

How the data were processed

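Ribo-seq (1 library) and RNA-seq (2 libraries) of SCCc were analysed. The authors trimmed reads, used Bowtie2 2.4.1 to discard Ribo-seq reads from rRNA, tRNA and mitochondria, aligned to GRCm38 with STAR 2.6.1 and counted genes with Plastid. The deposited values are estimated counts per exon, CDS and UTR region, which need not be whole. In the deposited RPKM, these counts are scaled to counted length and to a larger total of reads, of which exon counts made up 21.1% and 21.3% in RNA-seq and 1.75% in Ribo-seq. RPKM was therefore computed again over the sum of exon counts (numpy, pandas and scipy in Python 3.11.15), and base means used DESeq2 1.42.0 size factors from rounded counts. Counting intervals are exact Poisson, exact binomial or, for ratios, exact conditional 95% intervals on rounded counts.

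The members and gene lists were chosen with earlier results of these data known. Named were all 9 members, *Tgfbr2* and *Hras*, per list the 3 highest and 2 lowest genes by mean RNA-seq RPKM and those beyond 1 in log2 translational efficiency, and the 3 genes nearest to *Snai2*; some genes under this rule are not reported here. *Cdh1*, *Snai3*, *Twist2*, *Prrx1*, *Dsc1*, *Dsg1a*, *Zeb2os*, *Gm10125*, *Gm27761*, *Mir5129*, *Apol7d* and the cell type markers outside this rule were named after their values were seen. *Ccn2* and *Adgre1* were not matched by name. Alternatives covered library sizes (edgeR 4.0.16 TMM, DESeq2), RNA-seq over the CDS, a pseudocount, division by length, centring, filters and each RNA-seq replicate left out; those for the 3 wider lists and for the ratio of *Snai2* to *Epcam* were chosen after seeing the data. With 1 condition and 1 Ribo-seq library no test was run. The calculation was tested on simulated counts. Gene structures came from GENCODE M21; the annotation release used for counting is not given in the sources used here.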

Additional observations from a re-analysis of the deposited data

How the results depend on the processing

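Of 112 alternatives to 22 results, 28 moved a value by more than the spread between RNA-seq replicates (1 SD), a count by over 1.5 times or a ratio past its interval, among them all 7 for the log2 translational efficiency of *Snai2*, where that SD was 0.00569. Leaving out 1 of 2 replicates moves a mean by less than 1 SD whatever the values, so the 18 such alternatives in RPKM could not count as moved, although *Zeb1* ran from 0.0124 to 0.0648 RPKM and *Zeb2* from 0.00999 to 0.0849 RPKM, and *Snai1* was 0 throughout. Of the alternatives only the 42 of log2 translational efficiency could change sign, and 0 did. Counting RNA-seq over the CDS gave 114 RPKM for *Snai2* and 96.0 RPKM for *Epcam*, since both UTRs of each had fewer counts per base than the CDS, and log2 translational efficiencies of −0.59 and 1.39. The other alternatives moved *Snai2* to −0.58 to −0.57 without either RNA-seq replicate, −0.53 with a pseudocount of 1 RPKM, −0.81 without division by length, −0.96 when centred on genes with at least 100 counts and −0.59 without a filter. For *Epcam*, leaving out division by length gave 1.72 and the other centring gave 1.44. This centring shifted all passing genes by −0.39, and the cause of the other moves was not tested.

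With at least 100 counts in every library, 2 members passed, with 5 mesenchymal and matrix genes, 12 epithelial genes and 2 transcription factors, against 23.9% of rows with a counted CDS, since this minimum is stricter. On the deposited RPKM, which is lower by construction, 2 members, 5 mesenchymal genes, 16 epithelial genes and 3 transcription factors passed, against 40.6%. Without a filter 14 mesenchymal genes passed, against 55.6% of rows with a counted CDS. No paired analysis was possible because only 1 Ribo-seq library was analysed and no groups were compared. Depth limits *Zeb1*, *Zeb2*, *Fn1* and *Cdh2*, whose RNA or footprints rest on few counts.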
